A study of Mus musculus with 6 samples.

Results

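Steroid hormones made in the adrenal gland and gonads are oxidised, reduced and hydroxylated in the liver before they are conjugated and excreted, and the enzymes that do this belong to a few families. Hydroxysteroid dehydrogenases interconvert hydroxyl and keto groups and so switch a hormone between its active and inactive forms, 5α-reductase and aldo-keto reductases saturate the ring or reduce its keto groups, and cytochrome P450 hydroxylases add hydroxyl groups. Several of these genes are known in mouse liver for levels that differ between males and females and that follow the pulses of growth hormone. The 10 genes described here are Cyp17a1, Cyp7b1, Hsd3b2, Hsd3b3, Hsd3b5, Srd5a1, Akr1c6, Hsd17b2, Hsd11b1 and Hsd17b6, taken from the 21528 genes listed in any library. They were chosen by name, from a list that had been proposed with their values in these same livers known. Their difference between the genotypes is therefore given as a description. Whether the fit across all genes called a member is stated as part of that description, and nothing rests on it.

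RNA of the liver was sequenced in 3 libraries of WT mice and 3 of TRIM24 C52/55A mice, numbered as replicates in labels that do not say whether each was a separate animal, and n counts libraries. The mice were C57BL/6 by the labels (C57Bl/6J in the methods), 5 months old and kept for 3 months on a 60% fat diet (HFD). TRIM24 C52/55A mice carry a knockin, made with CRISPR/Cas9, that replaces Cys52 and Cys55 of the endogenous TRIM24 with alanine in every tissue and takes away its E3 ubiquitin ligase activity. Per the study's methods the animals came from crosses of heterozygotes, with homozygous knockins compared with WT littermates. The question asked of these livers was which transcripts differ when TRIM24 lacks that activity on the HFD, and both genotypes were on the HFD, so no normal diet stands beside them.

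Values are FPKM, fragment counts corrected for transcript length and for how many fragments a library holds, which puts genes of different length on 1 scale. FPKM summed to 644619 to 648221 in WT and 673244 to 676791 in TRIM24 C52/55A, so a comparison between libraries depends on how they are scaled. Judged by the step between low values, the 6 libraries had nearly equal depth (0.962 to 1.03 relative to the first WT library), and a single fragment on a transcript of 1 kb was worth 0.0550 to 0.0618 FPKM. A filter of 0.5 mean FPKM left 12225 genes, which were fitted together on log2(FPKM + 1) with limma, and a gene is called when its Benjamini-Hochberg adjusted p over all of them is under 0.05. Calls numbered 200 higher and 744 lower in TRIM24 C52/55A, which became 249 and 410 with median-of-ratios scaling, 255 and 378 with quantile normalization and 193 and 1295 with TPM. Trim24 itself had 4.31 to 8.46 FPKM over the 6 libraries, and since the knockin changes codons it is not a check of the labels. The labels give no sex. In all 6 libraries Y-linked Ddx3y and Eif2s3y were present, at 5.62 to 7.05 and 24.2 to 28.8 FPKM, and Xist reached 0.00403 FPKM at most. Of 6 hepatocyte markers fixed for this check, Ttr, Apoa1, Serpina1a and Cps1 had between 278 and 8183 FPKM in every library, and Alb and Tf were not analysed here. Mc2r and Nr5a1, taken here as markers of steroid-making glands, reached 0.142 and 0.0230 FPKM at most. Star, which brings cholesterol into steroid-making mitochondria, had 0.406 to 0.625 FPKM. Of 8 steroid gland markers examined 7 were listed, with a summed level of 152 to 186 FPKM in WT and 144 to 186 FPKM in TRIM24 C52/55A, nearly all of it from Mrap, Fdx1 and Scarb1, which hepatocytes express too.

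All 10 genes were listed in all 6 libraries and passed the filter on low values. They lie on chromosomes 1, 3, 8, 10, 13 and 19, and 3 of them, Hsd3b2, Hsd3b3 and Hsd3b5, stand side by side on the minus strand of chromosome 3. These 3 are copies of one gene for a 3β-hydroxysteroid dehydrogenase that have taken on different work. Hsd3b2 and Hsd3b3 belong to the copies that oxidise a 3β-hydroxyl group, the step that makes active hormones from their precursors, whereas Hsd3b5 belongs to the copies known to reduce 3-keto groups, the direction that inactivates androgens. The first 120 bases of their coding sequences (GENCODE M21, GRCm38) are shown because fragments can be told apart between the copies only where their letters differ. Capitals in the lower lines mark the bases that differ from Hsd3b5.
Hsd3b5: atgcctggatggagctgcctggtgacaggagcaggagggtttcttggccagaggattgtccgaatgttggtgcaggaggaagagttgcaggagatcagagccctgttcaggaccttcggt
Hsd3b2: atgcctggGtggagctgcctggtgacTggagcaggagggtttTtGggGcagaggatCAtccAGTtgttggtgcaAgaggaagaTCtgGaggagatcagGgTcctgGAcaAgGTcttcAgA
Hsd3b3: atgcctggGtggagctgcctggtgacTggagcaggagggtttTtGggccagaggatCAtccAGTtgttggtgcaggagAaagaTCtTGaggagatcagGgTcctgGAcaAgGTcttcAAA
In this stretch Hsd3b2 differed from Hsd3b5 at 23 bases and Hsd3b3 at 24, in many of the same places. Over the whole coding sequence of 1122 bases, Hsd3b5 was 80.5% identical to Hsd3b2 and 80.8% to Hsd3b3, and Hsd3b2 and Hsd3b3 were 95.1% identical to each other.

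Identity at this level leaves stretches that no short fragment can assign. Of all runs of 50 bases in its transcript, Hsd3b5 shared 21.2% with a transcript of another gene, Hsd3b2 25.3% and Hsd3b3 29.6%. The genes that shared most with Hsd3b5 were Gm10681, Hsd3b4 and Gm4450. Hsd3b2 and Hsd3b3 shared most with each other and with Hsd3b6, followed by Gm10681 and Gm4450. Hsd17b6 shared 14.8%, with retinol dehydrogenase genes, Srd5a1 shared 16.5% with Gm17108, and Akr1c6 shared 2.08% with Akr1c20. Cyp17a1, Cyp7b1, Hsd17b2 and Hsd11b1 shared none, with all transcripts read in the sense direction. How fragments were assigned is not given in the sources used here.

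In WT liver the 10 genes spanned 1.58 to 848 FPKM. Akr1c6, a reductase that converts keto steroids at position 17 to their hydroxy forms, was the highest, with 712 to 848 FPKM, and Hsd11b1, which regenerates active corticosterone from its inactive keto form, followed with 393 to 468 FPKM. Hsd3b3 had 95.5 to 130 FPKM and Hsd17b2, which oxidises oestradiol and testosterone to their weaker keto forms, had 69.4 to 80.9 FPKM. Hsd17b6 and Cyp7b1 came next with 44.9 to 61.2 and 45.0 to 58.7 FPKM and overlapped, so their order does not hold beyond the spread. Srd5a1, Cyp17a1 and Hsd3b2 followed in that order with no overlap between neighbours, and Hsd3b2 overlapped Hsd3b5 at the bottom.

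**Figure D1:**
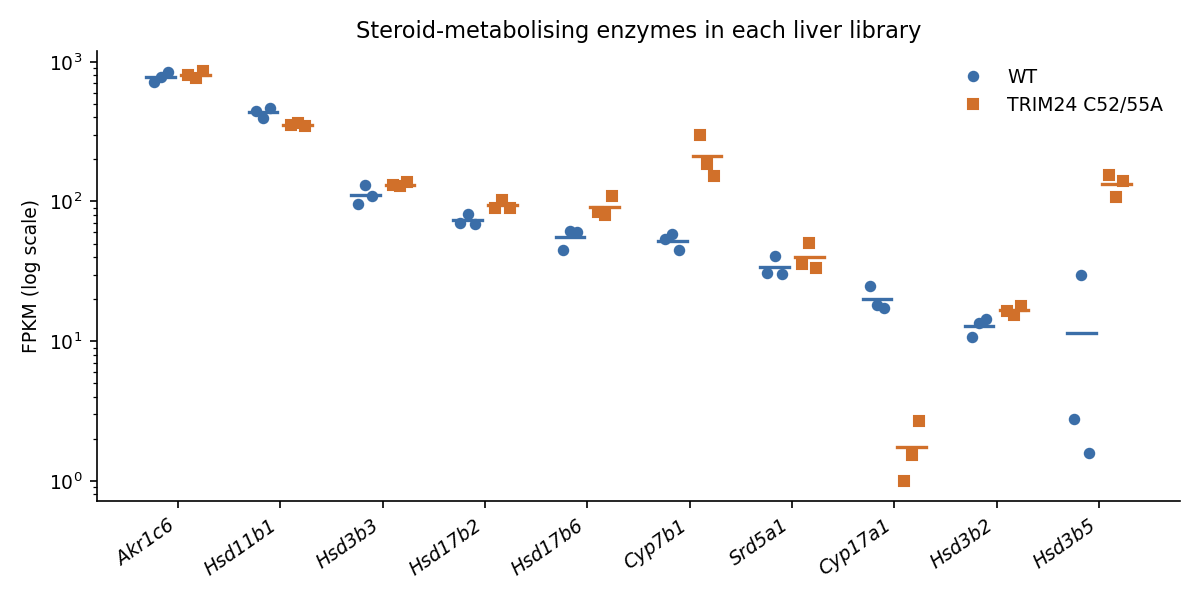
FPKM (y axis, log scale) of the 10 genes (x axis, in order of the WT mean) in 3 WT libraries (circles) and 3 TRIM24 C52/55A libraries (squares), with a line at each group's mean. Hsd3b5 stood at 1.58 to 29.9 FPKM in WT and 107 to 154 FPKM in TRIM24 C52/55A, and Cyp17a1 at 17.1 to 24.8 and 0.999 to 2.70 FPKM.

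In the TRIM24 C52/55A liver the order was different below the top pair. Akr1c6 and Hsd11b1 remained first and second, with 761 to 856 and 350 to 364 FPKM. Cyp7b1 and Hsd3b5 came next, with ranges of 152 to 300 and 107 to 154 FPKM that just overlapped. Hsd3b3, with 128 to 138 FPKM, overlapped Hsd3b5 and lay below every Cyp7b1 value. Cyp17a1 was the lowest of the 10.

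Of the 10 genes, 8 had a higher mean in the TRIM24 C52/55A liver and 2 a lower one. By the all-genes fit 3 were called higher, where 1.64% of all genes tested were, 1 was called lower, where 6.09% were, and 6 were not called, with 7.72% of all genes called in either direction. The groups did not overlap for 7 of the 10, and this held for 28.9% of all genes tested. The list was selected on this same contrast, and nothing is read from these counts. The median log2 fold change of the 10 was 0.30, with a median of -0.08 over all genes tested. Since these are whole livers, fewer cells of a type and less RNA per cell cannot be told apart.

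**Figure D2:**
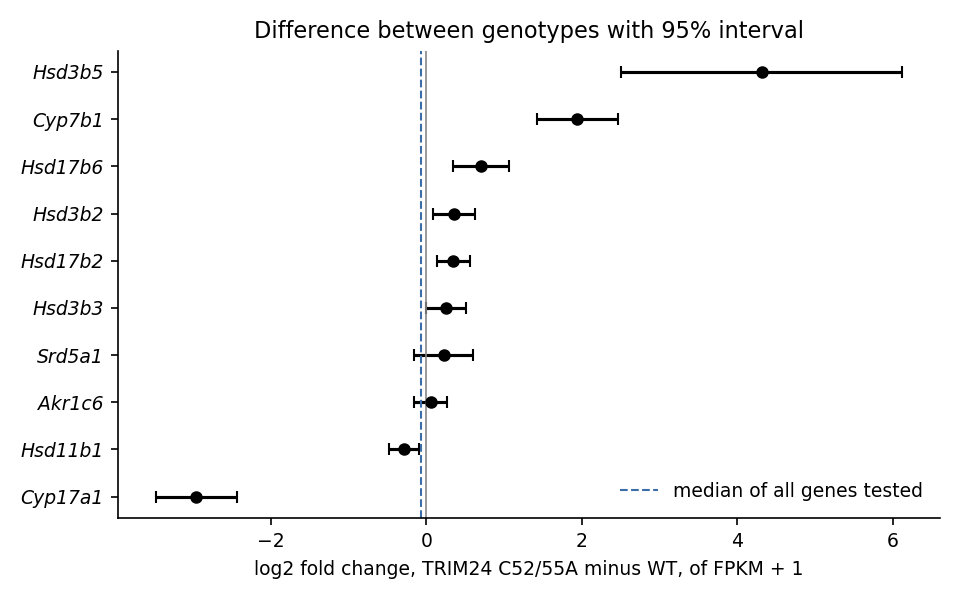
Log2 fold change of FPKM + 1, TRIM24 C52/55A minus WT (x axis), for each of the 10 genes (y axis), with its 95% interval from the all-genes fit and a dashed line at the median of all genes tested (-0.08). The intervals of Hsd3b5, Cyp7b1 and Cyp17a1 lie far from that line, and those of Hsd3b3, Srd5a1 and Akr1c6 include 0.

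Among the P450 enzymes, Cyp17a1 and Cyp7b1 stood at opposite ends. Cyp17a1 encodes the 17α-hydroxylase and 17,20-lyase that makes androgen precursors in gonads. The WT libraries had 24.8, 18.0 and 17.1 FPKM and the TRIM24 C52/55A libraries 0.999, 1.53 and 2.70 FPKM, given here and below in the order of replicates 1 to 3. The groups were thus separated by a wide gap, and the lowest value stands on about 31 fragments. The means were 20.0 ± 4.17 and 1.75 ± 0.871 FPKM (SD, n = 3 each), and the TRIM24 C52/55A mean was 0.0874 times that of WT. The log2 fold change was -2.96 (SE 0.23, 95% interval -3.48 to -2.44).

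Cyp7b1 encodes the oxysterol 7α-hydroxylase, which also hydroxylates dehydroepiandrosterone and androstanediols. The WT libraries had 53.8, 58.7 and 45.0 FPKM and the TRIM24 C52/55A libraries 300, 185 and 152 FPKM. The groups did not overlap, and TRIM24 C52/55A replicate 1 was well above the other libraries of its genotype. The means were 52.5 ± 6.96 and 212 ± 77.5 FPKM (SD, n = 3 each), a ratio of 4.04 and a log2 fold change of 1.94 (SE 0.23, 95% interval 1.42 to 2.46). Over the 14 alternative fits the log2 fold change ranged from -3.53 to -2.76 for Cyp17a1 and from 1.66 to 2.15 for Cyp7b1.

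Of the 3β-hydroxysteroid dehydrogenases, the reductive copy Hsd3b5 differed most between the genotypes. The WT libraries had 2.79, 29.9 and 1.58 FPKM and the TRIM24 C52/55A libraries 154, 107 and 140 FPKM. The WT libraries were themselves far apart, with replicate 2 well above the others, but it was still below each TRIM24 C52/55A library. The lowest WT value stands on about 42 fragments. The coefficient of variation was 140% in WT and 18.0% in TRIM24 C52/55A, beside medians of 9.42% and 12.5% over all genes tested. The means were 11.4 ± 16.0 and 134 ± 24.2 FPKM (SD, n = 3 each), and the log2 fold change was 4.31 (SE 0.79, 95% interval 2.51 to 6.12). Without WT replicate 2 it was 5.42 (SE 0.21), and without WT replicate 1, WT replicate 3 or TRIM24 C52/55A replicate 1 it was 3.90, 3.62 and 4.20.

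The oxidative copies beside it differed little. Hsd3b3 had 95.5, 130 and 109 FPKM in WT and 131, 128 and 138 FPKM in TRIM24 C52/55A, so that the groups overlapped, with a log2 fold change of 0.25 (SE 0.11, 95% interval -0.0047 to 0.51). Hsd3b2 had 10.8, 13.4 and 14.4 FPKM in WT and 16.6, 15.3 and 17.9 FPKM in TRIM24 C52/55A. Its groups stood next to each other without overlap, and the log2 fold change was 0.35 (SE 0.12, 95% interval 0.08 to 0.62).

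As a share of the 3 neighbouring genes, Hsd3b5 made up 2.56%, 17.2% and 1.27% of the summed FPKM of Hsd3b2, Hsd3b3 and Hsd3b5 in WT and 51.2%, 42.8% and 47.3% in TRIM24 C52/55A. The sum of the 3 was 109, 174 and 125 FPKM in WT and 302, 251 and 296 FPKM in TRIM24 C52/55A. The copies with which Hsd3b5 shares sequence were scarce. Hsd3b4, which is 95.2% identical to Hsd3b5, had 0.00941, 0.126 and 0 FPKM in WT and 0.441, 0.292 and 0.679 FPKM in TRIM24 C52/55A. Gm10681, whose coding sequence is identical to that of Hsd3b4, had 0.00941, 0.126 and 0 FPKM in WT and 0.422, 0.330 and 0.705 FPKM in TRIM24 C52/55A. Every run of 50 bases in these transcripts is also found in another gene, so their values and the small part they could take from Hsd3b5, at most 0.485% and 0.503% of its FPKM, are uncertain.

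The whole family was summed because fragments can be divided between its copies. Over the 7 Hsd3b genes listed, the sum was 455, 513 and 501 FPKM in WT and 609, 604 and 625 FPKM in TRIM24 C52/55A, with means of 490 ± 31.0 and 613 ± 11.1 FPKM (SD, n = 3 each) and a ratio of 1.25. Most of it was Hsd3b7, a family member outside the cluster that acts on sterols in bile acid synthesis, with 340 to 376 FPKM in WT and 307 to 353 FPKM in TRIM24 C52/55A. Without Hsd3b5 the sum was 478 ± 24.3 and 479 ± 21.7 FPKM. Hsd3b7 shares 93.9% of its runs of 50 bases with Gm49388. The other 3 copies, Hsd3b1, Hsd3b4 and Hsd3b6, had less than 0.7 FPKM in every library.

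**Figure D3:**
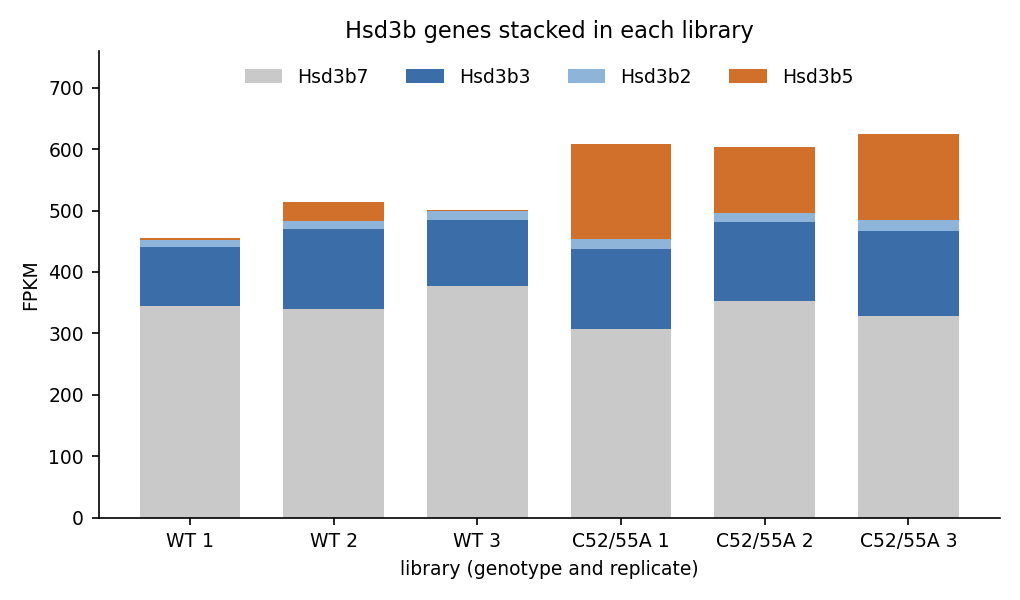
FPKM (y axis) of Hsd3b7, Hsd3b3, Hsd3b2 and Hsd3b5 stacked for each of the 6 libraries (x axis). The part of Hsd3b5 is the one that differs most, at 1.58 to 29.9 FPKM in WT and 107 to 154 FPKM in TRIM24 C52/55A, with Hsd3b7 at 307 to 376 FPKM throughout.

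Hsd17b6, a relative of the retinol dehydrogenases that oxidises androstanediol back to dihydrotestosterone, had 44.9, 61.2 and 60.9 FPKM in WT and 83.8, 80.1 and 110 FPKM in TRIM24 C52/55A. The groups did not overlap, with all WT libraries below the lowest TRIM24 C52/55A library. The means were 55.7 ± 9.36 and 91.4 ± 16.4 FPKM (SD, n = 3 each), with a log2 fold change of 0.70 (SE 0.16, 95% interval 0.35 to 1.06). Over the 14 alternatives it ranged from 0.56 to 0.86, the lowest without WT replicate 1.

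Hsd17b2 had 70.3, 80.9 and 69.4 FPKM in WT and 89.2, 102 and 89.5 FPKM in TRIM24 C52/55A. The groups did not overlap, and the log2 fold change was 0.34 (SE 0.09, 95% interval 0.13 to 0.56). With median-of-ratios and quantile scaling it was 0.45 and 0.49. Akr1c6, which carries out the reverse reduction, had 712, 781 and 848 FPKM in WT and 810, 761 and 856 FPKM in TRIM24 C52/55A. These groups overlapped, and the interval of its log2 fold change was -0.15 to 0.26.

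Hsd11b1 was the only other gene of the 10 with a lower mean in the TRIM24 C52/55A liver. It had 443, 393 and 468 FPKM in WT and 353, 364 and 350 FPKM in TRIM24 C52/55A, with no overlap. The means were 435 ± 38.0 and 355 ± 7.70 FPKM (SD, n = 3 each), and the log2 fold change was -0.29 (SE 0.08, 95% interval -0.48 to -0.09). It was -0.35 with TPM, -0.18 with median-of-ratios and -0.19 with quantile scaling. Hsd11b1 is also expressed in fat, and TRIM24 C52/55A replicate 2 held the fat cell transcripts Adipoq, Plin1, Lep and Retn at 4.55, 3.32, 3.98 and 1.59 FPKM, where the other libraries had 0 to 0.127 FPKM of each. Cfd and Cidea, also of that list, ran the other way between the genotypes, with 3.10 to 8.62 and 0.590 to 2.98 FPKM in WT and 0.112 to 2.54 and 0.128 to 0.889 FPKM in TRIM24 C52/55A, and neither was called. Over all 7 fat cell markers the sum was 7.37 to 11.4 FPKM in WT and 8.05, 29.3 and 11.6 FPKM in TRIM24 C52/55A. Without that library the log2 fold change of Hsd11b1 was -0.30.

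Srd5a1, the 5α-reductase that reduces testosterone to dihydrotestosterone and begins the breakdown of corticosterone, had 31.0, 40.5 and 30.4 FPKM in WT and 35.9, 50.6 and 33.7 FPKM in TRIM24 C52/55A. Its groups overlapped, replicate 2 was the highest of each genotype, and the interval of its log2 fold change ran from -0.16 to 0.60. The log2 fold change was 0.22 with SE 0.17 in the main fit and SE 0.09 with the replicate block. Srd5a1 was called in none of the 14 alternatives.

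The tables give an interval for each gene, and for 5 of the 10 it was more than 2 times as long as the gene annotated in GENCODE M21, as it was for 24.5% of all genes found there. Hsd3b2, Hsd3b3 and Hsd3b5 carried the same interval of 381 kb, chr3:98382461-98763127 (GRCm38), with Zfp697, Gm4450, Hsd3b4, Gm10681 and Gm43190. In the annotation they take up 15.3, 21.6 and 11.6 kb, at chr3:98709255-98724543, chr3:98741523-98763127 and chr3:98618634-98630252, each on the minus strand. The interval is thus 24.9, 17.6 and 32.8 times as long as the gene. One value summed over the 8 genes of the interval would have had a log2 fold change of 1.08 (SE 0.16), between the 4.31 of Hsd3b5 and the 0.25 of Hsd3b3.

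Srd5a1 was given 138 kb at chr13:69497959-69635780, and its annotated gene of 38.0 kb spans chr13:69573449-69611442 on the minus strand. Nsun2, an RNA methyltransferase, Papd7 and Gm17108 carried the same interval. Their FPKM were 20.3 to 23.5, 3.21 to 4.74 and 0.130 to 0.311 over the 6 libraries, all below the 30.4 to 50.6 FPKM of Srd5a1. Hsd11b1 was given 141 kb at chr1:193203038-193343878, shared with G0s2, Lamb3, Gm37691 and Gm38118, against an annotated 42.4 kb at chr1:193221634-193264075 on the minus strand. G0s2, an inhibitor of fat lipolysis, had 141, 52.6 and 129 FPKM in WT and 83.5, 43.5 and 38.3 FPKM in TRIM24 C52/55A, which overlapped (log2 fold change -0.91, SE 0.40, adjusted p = 0.213). Lamb3, a laminin chain, fell from 2.70 ± 0.922 to 1.01 ± 0.323 FPKM (SD, n = 3 each; log2 fold change -0.86, SE 0.20, limma adjusted p = 0.0376). Hsd11b1 summed with these genes had a log2 fold change of -0.39.

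Hsd17b2 was given chr8:117701904-117759027, its annotated extent on the plus strand, and shared it with RP24-420C18.2 and RP24-420C18.1, which had at most 0.539 and 0.149 FPKM. The other 4 genes had an interval of their own. Cyp7b1 was given chr3:18071950-18243338, exactly the annotated gene on the minus strand. Cyp17a1 at chr19:46667165-46672974 and Akr1c6 at chr13:4434306-4457530 ended slightly before the annotated gene, on the minus and the plus strand. Hsd17b6 was the one whose interval, 9.74 kb at chr10:127990941-128000678, was much shorter than its annotated 16.7 kb on the minus strand.

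**Figure D4:**
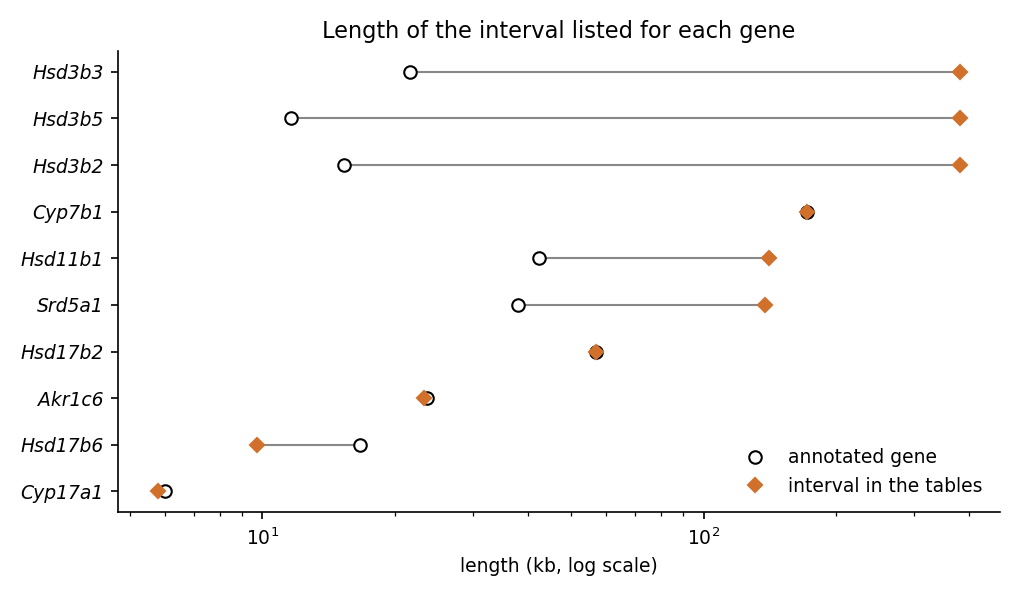
Length in kb (x axis, log scale) of the interval the tables give for each of the 10 genes (diamonds) and of the gene annotated in GENCODE M21 (circles). The 3 Hsd3b genes share an interval of 381 kb for genes of 11.6 to 21.6 kb, and Hsd17b6 is the one whose interval is clearly shorter than the gene.

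Promoter windows of 300 bases (250 before and 50 after the start, RefSeq, GRCm38.p6) were at hand for 7 of the 10 genes, 9 windows in all, and for a gene with more than 1 the first is meant. Those of Hsd3b5 and Hsd3b3 are shown because these neighbours have related sequence and stood far apart in WT liver. They are chr3:98645485-98645784 and chr3:98763079-98763378, both on the minus strand. The RefSeq start of Hsd3b5 lies 15.3 kb upstream of the start annotated in GENCODE M21, whereas that of Hsd3b3 is at the same place to within 1 base. Capitals mark the single run of at least 12 bases that the windows share.
Hsd3b5: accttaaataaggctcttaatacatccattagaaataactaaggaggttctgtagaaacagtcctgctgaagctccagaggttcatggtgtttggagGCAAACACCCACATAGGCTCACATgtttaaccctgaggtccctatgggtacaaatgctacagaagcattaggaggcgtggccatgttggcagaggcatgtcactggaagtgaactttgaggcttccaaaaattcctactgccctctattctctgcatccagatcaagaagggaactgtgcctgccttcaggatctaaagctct
Hsd3b3: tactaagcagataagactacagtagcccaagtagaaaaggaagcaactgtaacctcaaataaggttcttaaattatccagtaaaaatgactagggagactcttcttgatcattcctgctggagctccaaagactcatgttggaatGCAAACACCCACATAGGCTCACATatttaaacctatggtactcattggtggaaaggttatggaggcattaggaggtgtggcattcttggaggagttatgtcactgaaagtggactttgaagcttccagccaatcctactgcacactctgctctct
The shared run is 24 bases long. The 3 motifs below were searched on both strands of all 9 windows. The letters of STAT5, TTCNNNGAA, and of a nuclear receptor hexamer, AGGTCA, were in none of them, and they were in 8.30% and 16.3% of all 32851 promoter windows. The androgen and glucocorticoid receptor hexamer, AGAACA, was in that of Hsd3b2 alone, at -246 to -241 from the start, and in 19.0% of all windows.

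Genes whose pattern over the 6 libraries was most like that of the extreme members were found among all genes tested, as a description with no test. For Hsd3b5 they were BC024978, D630033O11Rik and Slco1a1, with Pearson r of 0.996, 0.995 and 0.995 of log2(FPKM + 1) over 6 libraries. Slco1a1, an organic anion transporter of the hepatocyte that carries steroid conjugates, had 47.1, 89.7 and 37.8 FPKM in WT and 147, 123 and 126 FPKM in TRIM24 C52/55A. For Cyp17a1 they were Borcs7, March8 and Cs, with r of 0.999, 0.998 and 0.998. Cs, the citrate synthase, had 62.4, 58.5 and 58.2 FPKM in WT and 40.0, 43.1 and 45.4 FPKM in TRIM24 C52/55A. These values share the same 6 libraries, and genes that differ between the genotypes in the same direction share that part of their pattern.

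Other genes of steroid metabolism were taken from 8 lists written by family and role, with earlier results of these data known. Their counts are therefore given as a description beside those of all genes. Of 74 genes, 64 were listed in some library and 48 were tested. In the same fit 11 of the 48 fell and 0 rose in the TRIM24 C52/55A liver, where 6.09% and 1.64% of all genes tested were called lower and higher (limma). At an unadjusted p under 0.05, 25 were lower and 2 higher, where 19.0% and 4.63% of all genes tested were. The median log2 fold change of the 48 was -0.34, beside -0.08 over all genes tested, and with median-of-ratios scaling it was -0.24 beside 0.01, with 6 genes called lower and 0 higher.

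**Figure D5:**
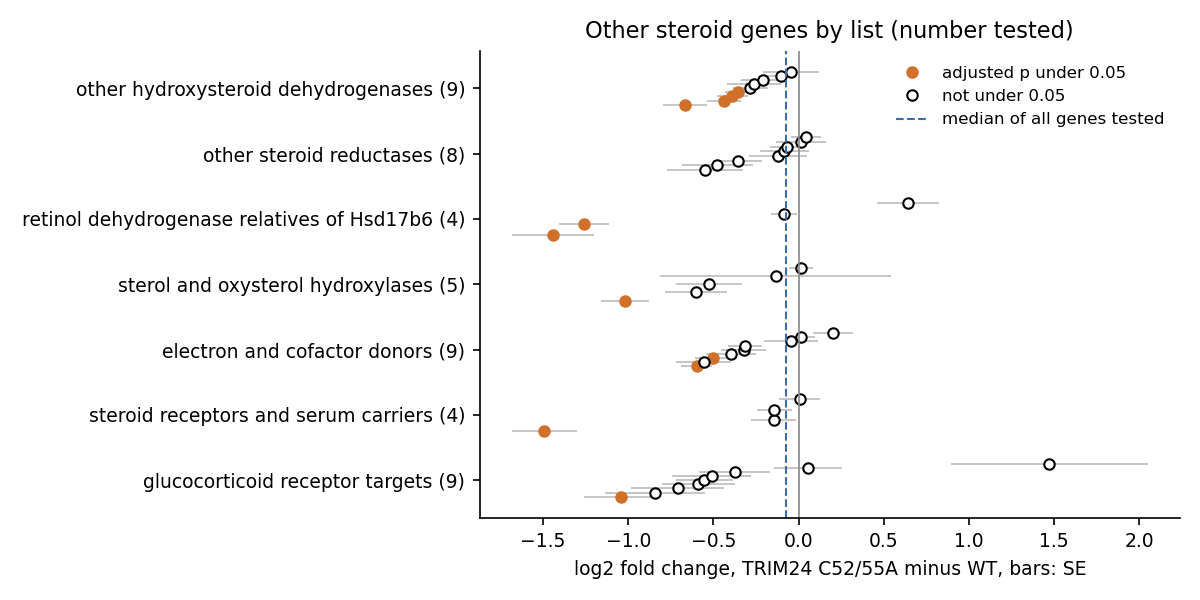
Log2 fold change, TRIM24 C52/55A minus WT, of FPKM + 1 (x axis) of the 48 other steroid genes tested, by list with the number tested (y axis). Filled points have an adjusted p under 0.05, bars are standard errors and the dashed line is the median of all genes tested (-0.08), and the 11 filled points all lie below 0.

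Of 9 other hydroxysteroid dehydrogenases tested, 4 fell, where 6.09% of all genes tested were called lower. All 9 had a log2 fold change below 0, beside a median of -0.08 over all genes tested. With median-of-ratios and quantile scaling, where that median was 0.01, 8 and 7 were below 0 and none was called. Hsd17b10, a mitochondrial enzyme of isoleucine breakdown that also oxidises steroids, had 168, 186 and 176 FPKM in WT and 100, 99.3 and 137 FPKM in TRIM24 C52/55A (log2 fold change -0.67, SE 0.13, limma adjusted p = 0.0201). Hsd17b13, a lipid droplet protein of the hepatocyte, had 330 to 396 FPKM in WT and 247 to 294 FPKM in TRIM24 C52/55A (-0.44, SE 0.10, adjusted p = 0.0348). Hsd17b4, the peroxisomal multifunctional enzyme of fatty acid oxidation, fell by 0.39 on the log2 scale (SE 0.09, adjusted p = 0.0373). Hsd17b12, which acts in the elongation of long-chain fatty acids, fell by 0.36 on the log2 scale (SE 0.07, adjusted p = 0.0250). These 4 genes lost their call in 7 to 11 of 14 alternatives each, including each fit without a single WT library or without TRIM24 C52/55A replicate 1.

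Of 8 other steroid reductases tested none was called, with 3 at an unadjusted p under 0.05 (limma), all lower, beside the same 19.0% of all genes tested. The most abundant over all 6 libraries were Akr1c14, a 3α-hydroxysteroid dehydrogenase, with 103 to 127 FPKM in WT and 86.0 to 124 FPKM in TRIM24 C52/55A, and Akr1c20 with 80.5 to 97.2 and 57.0 to 85.3 FPKM. Both overlapped between the genotypes. Their log2 fold changes were -0.08 (SE 0.14) and -0.36 (SE 0.14).

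Of 4 retinol dehydrogenase relatives of Hsd17b6 tested, 2 fell, where 6.09% of all genes tested were called lower. The others were not called. Rdh7, the most abundant of the 4, had 701, 712 and 766 FPKM in WT and 665, 722 and 668 FPKM in TRIM24 C52/55A (log2 fold change -0.08, SE 0.08). Dhrs9 had 0.632, 0.559 and 0.373 FPKM in WT and 1.35, 2.07 and 0.851 FPKM in TRIM24 C52/55A, without overlap (0.64, SE 0.18). Rdh7, Rdh9 and Rdh16 are on chromosome 10 like Hsd17b6, and Dhrs9 is on chromosome 2. Rdh9 had 37.0, 34.6 and 49.7 FPKM in WT and 15.7, 14.4 and 18.4 FPKM in TRIM24 C52/55A, and fell by 1.26 on the log2 scale (SE 0.15, limma adjusted p = 0.00315). Rdh16, which oxidises retinol and androgens, had 75.4, 70.8 and 69.4 FPKM in WT and 25.3, 17.1 and 39.1 FPKM in TRIM24 C52/55A, and fell by 1.44 on the log2 scale (SE 0.24, adjusted p = 0.0132). Neither Rdh9 nor Rdh16 overlapped between the genotypes. Rdh16 lost its call without WT replicate 1 (adjusted p = 0.0544), WT replicate 3 (0.0522) or TRIM24 C52/55A replicate 1 (0.0589) and with no filter (0.0614), and Rdh9 kept it in all 14 alternatives. Of the 5 steroidogenic P450 genes, which make hormones from cholesterol in the adrenal gland and gonads, 2 were listed, Cyp11a1 with at most 0.0270 FPKM and Cyp21a1 with at most 0.469 FPKM, and none passed the filter. The other 3 were not analysed here. Cyp11a1 makes pregnenolone, a substrate of Cyp17a1, which had 17.1 to 24.8 FPKM in the same WT livers.

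Of 5 sterol and oxysterol hydroxylases tested, the family of work to which Cyp7b1 belongs, 1 fell, where 6.09% of all genes tested did. Cyp46a1, which hydroxylates cholesterol at position 24, had 1.47, 1.37 and 2.27 FPKM in WT and 0.284, 0.327 and 0.353 FPKM in TRIM24 C52/55A (log2 fold change -1.02, SE 0.14, limma adjusted p = 0.00662). It was lower in all 14 alternatives, and at so low a level the fold on this scale understates the change.

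Of 9 electron and cofactor donors, which supply the P450 enzymes and reductases, 2 fell, where 6.09% of all genes tested were called lower. Cyb5a, the cytochrome b5 that promotes the lyase reaction of Cyp17a1, had 558, 608 and 691 FPKM in WT and 393, 435 and 482 FPKM in TRIM24 C52/55A (log2 fold change -0.50, SE 0.11, limma adjusted p = 0.0301), and its call was lost in 7 of 14 alternatives. Pgrmc2, a haem-binding membrane protein, fell from 36.9 ± 3.47 to 24.0 ± 1.16 FPKM (SD, n = 3 each; -0.60, SE 0.09, adjusted p = 0.00896), in all 14. H6pd, which supplies Hsd11b1 with NADPH, had 88.2 to 100 FPKM in WT and 93.4 to 127 FPKM in TRIM24 C52/55A and was not called.

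Of 4 steroid receptors and serum carriers tested, 1 fell, where 6.09% of all genes tested were called lower. Serpina6, the corticosteroid-binding globulin that the liver secretes, had 157, 133 and 197 FPKM in WT and 51.1, 46.8 and 74.0 FPKM in TRIM24 C52/55A. The groups did not overlap, and the log2 fold change was -1.49 (SE 0.19, limma adjusted p = 0.00480), a call kept in all 14 alternatives. The glucocorticoid receptor gene Nr3c1 had 7.71 to 8.52 and 6.77 to 9.22 FPKM and overlapped. Of 9 glucocorticoid receptor targets tested, 1 fell, where 6.09% of all genes tested were called lower. Per1, a clock gene that glucocorticoids induce, had 5.39, 11.0 and 8.31 FPKM in WT and 3.10, 4.09 and 2.91 FPKM in TRIM24 C52/55A (-1.04, SE 0.22, adjusted p = 0.0268), and its call was lost in 5 of 14 alternatives, which were the fit with no filter (adjusted p = 0.0899) and those without WT replicate 2 (0.0631) or 3 (0.101) or TRIM24 C52/55A replicate 1 (0.103) or 3 (0.0631). For this list 7 of 9 log2 fold changes were below 0 under each scaling but TPM, where 8 were. The median over all genes tested was -0.08 in the main fit, -0.13 with TPM and 0.01 with median-of-ratios and quantile scaling. Zbtb16 had the largest change of the list and went the other way, with a log2 fold change of 1.47 (SE 0.58). It was not called, and its groups overlapped.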

How the data were processed

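RNA-Seq of liver was available as 1 table per library, 3 of WT and 3 of TRIM24 C52/55A mice. The authors deposited FPKM, in tables whose values are all above 0. The submitters' processing notes name GRCm38, bcl2fastq, Salmon 0.14.0 and DESeq2 1.30.0 without their roles. A gene listed in some tables was set to 0 in the others, which says only that it is not listed there, and a gene in none of them was not analysed. FPKM keep no total count, and relative depth came from the steps between low values. How fragments of overlapping or near-identical genes were divided is not given in the sources used here. Interval starts in the tables count from 0 and were moved by 1.

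Groups and replicate numbers came from the labels. The labels number the replicates without naming animals or batches, so p-values measure only the spread between these libraries, which may be technical. The members and gene lists were chosen with earlier results of these data known. limma 3.58.1 (R 4.3.3; lmFit, eBayes with a mean-variance trend) was fitted on log2(FPKM + 1) in the 12225 genes whose mean reached 0.5 FPKM, with Benjamini-Hochberg adjustment and two-sided tests. The fit was tested on simulated data. Fold changes on this scale understate those of low genes. Named were all 10 members, called genes of each list (at most 8; with none called, the 2 highest), the 3 genes most like Hsd3b5 and Cyp17a1, genes sharing an interval and Trim24. H6pd, Nr3c1, Rdh7, Dhrs9, Zbtb16, Cyp11a1, Cyp21a1, the sex-chromosome genes and the pair of promoters shown were chosen after their values were seen. Alternatives were pseudocount 0.1, no filter, a filter of 1 FPKM, TPM, median-of-ratios and quantile scaling, no trend, the replicate block, leaving out each library and summing genes of an interval. Transcripts were those of GENCODE M21, of which 21454 of 21528 identifiers matched, and runs of 50 bases were compared between all of them with Python 3.11.15.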

Additional observations from a re-analysis of the deposited data

How the results depend on the processing

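The limit throughout is 3 libraries per genotype. Of the 10 members, 4 were called; 2 were called with no filter on low values, 5 with TPM, median-of-ratios or quantile scaling, where Hsd11b1 (TPM) or Hsd17b2 (the other scalings) was added, and 2 to 4 with 1 library left out. Genes called over all those tested numbered 944, and 347 with no filter, 1488 with TPM and 578 with the replicate block. With 1 library left out they numbered 294 to 1280. The lowest was without TRIM24 C52/55A replicate 1 and the highest without TRIM24 C52/55A replicate 2, the library with the fat cell transcripts. Other steroid genes called numbered 11, and 5 with no filter, 6 with median-of-ratios scaling and 6 with quantile normalization. With 1 library left out they numbered 4 to 15. They were 6, 5 and 4 without WT replicate 1, 2 or 3, and 15 without TRIM24 C52/55A replicate 2. The log2 ratio of the summed Hsd3b genes was 0.32, 0.43 with median-of-ratios scaling, 0.46 with quantile normalization and, with 1 library left out, within the spread between replicates. The cause of these shifts was not tested. Same-numbered libraries did not deviate together over all genes (r of -0.12, -0.10 and 0.00). With 3 libraries per genotype this cannot tell whether the numbers stand for a pairing. With the replicate block 4 members and 12 other steroid genes were called. Hsd17b4, Hsd17b12 and Hsd17b13 were not called there (limma adjusted p of 0.0783, 0.0678 and 0.0871). Of the called members, Hsd3b5 was not called in 4 of 14 alternatives (no filter, without WT replicate 1 or 3, or without TRIM24 C52/55A replicate 1). Hsd17b6 was not called in 6 (no filter, without any 1 WT replicate, or without TRIM24 C52/55A replicate 1 or 3), and Cyp17a1 and Cyp7b1 in 0. The groups of all 4 did not overlap, so leaving out a library could not change their direction. Akr1c14 and Akr1c6, called in none of the 14, ranged from -0.19 to 0.07 and from -0.01 to 0.16. Akr1c20 was called in 1 of the 14, without TRIM24 C52/55A replicate 3 (log2 fold change -0.51, limma adjusted p = 0.0456). The letters searched in promoters were in the same members when only the part before the start was used.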

Other observations

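Of 41 cell type markers tested beside the enzymes, 4 (9.76%) were called in the same fit (limma, Benjamini-Hochberg adjustment), near the 7.72% of all genes tested, so the number called is not a result about the markers. Adrb3, the β3-adrenergic receptor best known from fat cells, had 2.04, 2.17 and 1.99 FPKM in WT and 7.81, 12.4 and 10.6 FPKM in TRIM24 C52/55A (log2 fold change 1.86, SE 0.15). Of the other fat cell markers, 5 were tested and none was called, and Cfd and Cidea had lower means in TRIM24 C52/55A (log2 fold changes -1.61 and -0.99). Mrap, the accessory protein of the adrenal ACTH receptor, had 32.9, 30.1 and 40.0 FPKM in WT and 19.0, 19.6 and 24.7 FPKM in TRIM24 C52/55A (-0.68, SE 0.13). Mc2r, that receptor, was listed in 1 of 6 libraries, at 0.142 FPKM in TRIM24 C52/55A replicate 2, the library with the fat cell transcripts described above. Lyve1, of the sinusoidal endothelium, had 8.40, 5.25 and 5.00 FPKM in WT and 0.974, 2.84 and 2.38 FPKM in TRIM24 C52/55A (-1.26, SE 0.27), while the other 5 endothelial markers were not called. Cps1 of the urea cycle had 278 to 344 and 421 to 577 FPKM (0.63, SE 0.13).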
